A study of Mus musculus with 6 samples.

Results

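The glycolysis enzymes described here are the 10 genes Hk1, Hk2, Gpi1, Pfkl, Pfkp, Aldoa, Pgk1, Pgam1, Eno1 and Ldha, chosen by gene symbol from a table of 15139 genes. All 10 were present, and all 10 passed the filter on low values, as did 11365 genes in all. Expression was measured by sequencing of polyadenylated RNA from primary mouse bone marrow cells after 1 week in culture with interleukin 3 (10 ng/ml) and stem cell factor (50 ng/ml), a cytokine pair that favours immature myeloid cells, mast cells and basophils. The cells labelled MxCre+v: Dnmt3a-/- (KO) are those of the Dnmt3a knockout, a gene for a de novo DNA methyltransferase, and the cells labelled MxCre+v: Dnmt3a+/+ (WT) are the wild type for that gene. Both groups carry the Mx-Cre transgene, whose promoter responds to interferon and which is active in blood cells and also in other tissues. The labels give the KO group as knockdown in a further field, and give neither age nor sex nor the time of deletion. KO is represented by replicates 2 and 3 and WT by replicates 1, 2 and 3, and KO replicate 1 was not analysed here. Whether the replicates are separate animals or cultures is not stated in the labels, so p-values measure only the spread between these libraries, part of which may be technical.

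Glycolysis splits glucose into pyruvate in the cytosol and yields ATP and NADH without oxygen. Hexokinase traps glucose as glucose 6-phosphate, phosphofructokinase commits the sugar to breakdown, and aldolase cleaves it into triose phosphates, which the lower enzymes turn into pyruvate. Lactate dehydrogenase then converts pyruvate to lactate and regenerates NAD+. Several of these genes are textbook targets of the hypoxia factor HIF1 and of MYC, and activated mast cells, macrophages and neutrophils rely heavily on the pathway.

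Levels are FPKM, fragments scaled to gene length and to all mapped fragments, so levels can be compared between genes, while the read depth of each library is unknown. The FPKM of all genes summed to between 560387 and 604368 per library. Dnmt3a itself stood at 2.58 and 3.42 FPKM in the KO libraries, against 6.68, 9.99 and 9.04 FPKM in the WT libraries. Its transcript was lower in both KO libraries than in all WT libraries but was not absent, and gene-level FPKM do not show which exons the remaining reads cover. Xist and Ddx3y levels showed that both KO libraries and WT replicate 1 came from male cells and WT replicates 2 and 3 from female cells. WT replicate 1 was thus not from the same animal as WT replicates 2 and 3, while libraries of the same sex and genotype may be. Markers of several blood cell types also differed between genotypes, counted at a limma adjusted p under 0.05 over all tested genes. At that threshold 13.0% of all tested genes were called lower and 9.08% higher. Of 16 tested mast cell markers, 12 rose and none fell, with a summed level of 32827 to 36876 FPKM in KO and 14034 to 16021 FPKM in WT. Of 16 monocyte and macrophage markers, 14 fell and none rose (2719 to 2953 FPKM in KO, 6527 to 8405 FPKM in WT), and of 14 neutrophil markers, 10 fell and none rose (13065 to 16916 FPKM in KO, 22673 to 33444 FPKM in WT). All 7 tested dendritic cell markers fell, by a median of 2.98 on the log2 scale, to a summed level of 157 to 314 FPKM in KO, against 1603 to 2178 FPKM in WT. The tested markers were Itgax, Batf3 and the MHC class II presentation genes H2-Aa, H2-Ab1, H2-Eb1, Cd74 and Ciita. Most of the summed level was that of the MHC class II genes. Flt3 (0.13 to 0.28 FPKM) and Xcr1 (0.06 to 0.25 FPKM) were below the filter. Of 6 basophil markers, 4 rose and none fell (7559 to 7789 FPKM in KO, 5957 to 7504 FPKM in WT). The basophil markers that did not pass were Mcpt8 (log2 change -0.22, limma adjusted p = 0.306) and Prss34 (-0.06, 0.862), so the basophil list did not move as a whole. No listed marker of these cell types in the table was at 0 in all libraries of a group. The part of these shifts in the glycolysis results was not tested, and in bulk RNA fewer cells of a type cannot be told apart from less RNA per cell.

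Of the 10 glycolysis enzymes, 5 fell (Pfkl, Aldoa, Pgk1, Pgam1 and Eno1), 1 rose (Hk1) and 4 did not pass the test (Hk2, Gpi1, Pfkp and Ldha), at a limma adjusted p under 0.05 over all 11365 tested genes. In the same comparison 22.1% of all tested genes were called, 13.0% lower and 9.08% higher. The median log2 change of the 10 genes was -0.25, against -0.04 over all tested genes and -0.08 over the 844 tested genes with a mean of at least 100 FPKM, of which 19.0% were called lower. In 7 of the 10 genes both KO libraries lay below all WT libraries, and in 1 both lay above, while 30.8% and 20.4% of all tested genes did so. Among the genes with a mean of at least 100 FPKM, 39.5% had both KO libraries below all WT libraries. Changes are log2 of KO over WT on the log2(FPKM + 1) scale, with their standard errors (SE).

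**Figure D1:**
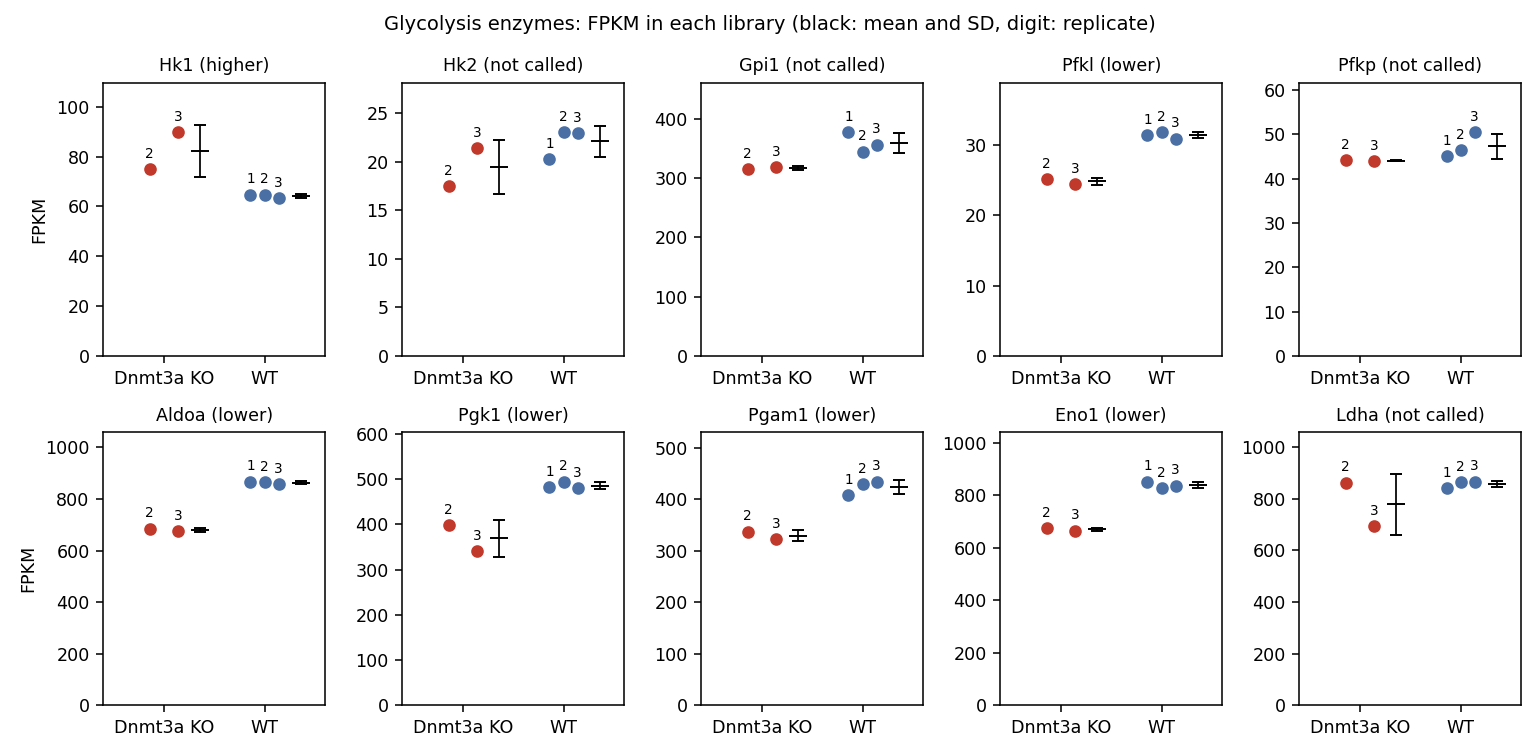
FPKM of the 10 glycolysis enzymes in each library (points, numbered by replicate), with Dnmt3a KO on the left of each panel and WT on the right and the mean and SD in black; each vertical axis starts at 0 and has its own range. The KO points lie below all WT points for 7 genes, above them for Hk1 and among them for Hk2 and Ldha, and the panel titles give the call at a limma adjusted p under 0.05.

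The 10 genes, which do not include Gapdh, Tpi1 and Pkm, summed to 3434 and 3197 FPKM in KO replicates 2 and 3. In WT replicates 1, 2 and 3 this sum was 3993, 3991 and 4000 FPKM. As a share of all FPKM in the library, the sum of the 10 genes was 0.569% and 0.57% in KO and 0.661%, 0.68% and 0.683% in WT. The WT libraries differed little from each other in this sum, and both KO libraries lay below all of them. The order of the genes by level was nearly the same in both genotypes. In KO it ran from Ldha (mean 779 FPKM) and Aldoa (680 FPKM) over Eno1, Pgk1, Pgam1, Gpi1, Hk1, Pfkp and Pfkl to Hk2 (19.4 FPKM). In WT the same order held with Aldoa (864 FPKM) and Ldha (858 FPKM) exchanged, and there the ranges of Aldoa and Ldha, and of Ldha and Eno1, overlapped. In KO the lowest Aldoa value (674.86 FPKM) and the highest Eno1 value (674.76 FPKM) were nearly equal. Hexokinase and phosphofructokinase thus had the lowest levels in both groups. By mean FPKM over the libraries, Ldha ranked 128, Aldoa 133, Eno1 137, Pgk1 217 and Pgam1 241 of the 15139 genes.

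Promoter sequences were taken from RefSeq (GRCm38.p6), and only the 250 bases before each annotated start are used. All 10 genes matched, with 16 starts. The 5 windows below belong to Hk1, the gene that rose, with both of its starts, and to Pfkl, Pgk1 and Pgam1, the genes among those that fell with a single annotated start, so that windows of genes that moved in opposite directions can be read side by side. Capitals mark ACGTG or GCGTG on either strand, the core that HIF1 can bind, and each line ends at the base before the start, 5′ to 3′ on the gene's strand.
Hk1 start 1, chr10:62379909-62380158, minus strand: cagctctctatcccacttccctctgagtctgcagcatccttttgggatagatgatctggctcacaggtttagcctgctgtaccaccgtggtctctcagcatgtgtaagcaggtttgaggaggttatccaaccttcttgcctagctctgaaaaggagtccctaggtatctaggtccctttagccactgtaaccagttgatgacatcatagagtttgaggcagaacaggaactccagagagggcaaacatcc
Hk1 start 2, chr10:62340422-62340671, minus strand: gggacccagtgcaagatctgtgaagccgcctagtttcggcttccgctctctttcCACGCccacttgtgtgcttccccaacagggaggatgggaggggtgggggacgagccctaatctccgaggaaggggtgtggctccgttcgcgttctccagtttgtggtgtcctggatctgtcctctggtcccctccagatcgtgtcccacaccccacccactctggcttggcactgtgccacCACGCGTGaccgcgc
Pfkl, chr10:78009808-78010057, minus strand: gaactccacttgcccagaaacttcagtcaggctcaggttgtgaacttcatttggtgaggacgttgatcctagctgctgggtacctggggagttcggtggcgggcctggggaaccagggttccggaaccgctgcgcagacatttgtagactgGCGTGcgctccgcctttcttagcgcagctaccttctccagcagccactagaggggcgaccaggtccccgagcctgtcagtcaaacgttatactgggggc
Pgk1, chrX:106186850-106187099, plus strand: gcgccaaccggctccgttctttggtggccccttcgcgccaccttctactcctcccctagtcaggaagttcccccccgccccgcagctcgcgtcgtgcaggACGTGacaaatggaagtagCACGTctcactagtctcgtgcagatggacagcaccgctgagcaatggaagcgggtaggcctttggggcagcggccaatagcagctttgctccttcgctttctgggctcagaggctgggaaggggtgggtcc
Pgam1, chr19:41911621-41911870, plus strand: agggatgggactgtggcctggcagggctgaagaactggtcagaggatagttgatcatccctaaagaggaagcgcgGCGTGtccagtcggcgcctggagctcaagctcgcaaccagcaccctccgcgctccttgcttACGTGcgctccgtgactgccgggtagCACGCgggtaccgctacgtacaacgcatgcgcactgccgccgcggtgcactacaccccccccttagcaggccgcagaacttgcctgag

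The Pgk1 window held 2 such cores and the Pgam1 window held 3. The Pfkl window held 1 core, the upstream Hk1 window held none and the downstream Hk1 window held 3, of which 2 overlap. A core was found in 13 of the 16 windows and in 9 of the 10 genes, all but Gpi1. Over RefSeq as a whole it was found in 38.6% of the 32851 windows of the same length and, counted by gene, in at least 1 window of 41.5% of 27025 genes. The 16 windows are not separate, since 2 Aldoa windows share 174 bases and 2 Eno1 windows share 223 bases, so some cores are counted in both. The longer E-box CACGTG, which MYC can bind and which contains ACGTG, was present in 1 of the 16 windows, at an Ldha start, and in 6.02% of all windows. The windows of the 10 genes were rich in CpG, the dinucleotide that Dnmt3a methylates, with 0 to 25 CpG per window and a median of 16.5, against a median of 6 over all windows. Both forms of the core and the E-box contain a CpG themselves, so the shares over all windows and genes are not a background matched for CpG. Whether cores were more frequent than in windows of similar CpG content was not tested. The windows without a core were the upstream Hk1 window with 1 CpG, the first of 3 Aldoa windows with 0 CpG and the Gpi1 window with 14 CpG. FPKM do not show which start was used, DNA methylation was not measured here, and a match to these letters is a description of the window.

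At hexokinase, the entry step, Hk1 rose in KO and Hk3 fell, while the summed level overlapped between genotypes. Hk1 (gene 15275, chromosome 10, 62268855 to 62379920, minus strand, GRCm38.p6), the widely expressed isozyme that docks on mitochondria, stood at 74.95 and 89.78 FPKM in KO replicates 2 and 3, against 64.76, 64.78 and 63.27 FPKM in WT replicates 1, 2 and 3. Both KO libraries were above all WT libraries, and KO replicate 3 was the highest. The mean was 82.4 ± 10.5 FPKM in KO (SD, n = 2) and 64.3 ± 0.866 FPKM in WT (SD, n = 3). Hk1 rose by 0.35 ± 0.09 (SE) on the log2 scale, with a limma adjusted p = 0.0322. Hk2 (gene 15277, chromosome 6, 82725025 to 82774454, minus strand), the inducible isozyme that HIF1 and AKT signalling raise, had 17.47 and 21.39 FPKM in KO and 20.23, 23.01 and 22.96 FPKM in WT. Its groups overlapped, and its log2 change of -0.18 ± 0.11 did not pass (adjusted p = 0.288). Hk3, a hexokinase of myeloid cells and not one of the 10 genes, had 51.2 and 54.01 FPKM in KO and 78.42, 77.92 and 73.1 FPKM in WT. It fell by 0.53 ± 0.07 on the log2 scale (adjusted p = 0.00251), with no overlap between the groups.

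As shares of the FPKM of the 3 hexokinases, which do not depend on scaling between libraries, Hk1 held 53.3% ± 1.5 in KO (SD, n = 2) and 39.5% ± 0.34 in WT (SD, n = 3). Hk3 held 34.2% ± 2.1 in KO and 47.0% ± 1.1 in WT, so that Hk1 led in both KO libraries and Hk3 in all WT libraries. Hk2 held 12.6% ± 0.56 in KO and 13.6% ± 1.1 in WT. The difference was 13.8 percentage points for Hk1 and -12.8 for Hk3, each with a two-sided exact permutation p = 0.2. The test used sets p at 2 times the smaller tail, and 0.2 is the smallest it can give for 2 against 3 libraries. For Hk2 the difference was -1.0 points (exact permutation p = 0.4). The summed hexokinase level was 144 and 165 FPKM in KO and 163, 166 and 159 FPKM in WT, with overlapping groups. An antisense RNA gene, Hk1os, overlaps Hk1, and Gm17034 overlaps Hk2, and the sources used here do not say whether counting used the strand. Pfkp overlaps Pitrm1, Aldoa overlaps Fam57b and Gpi1 overlaps Gm26762, each on the other strand, with the same limit.

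**Figure D2:**
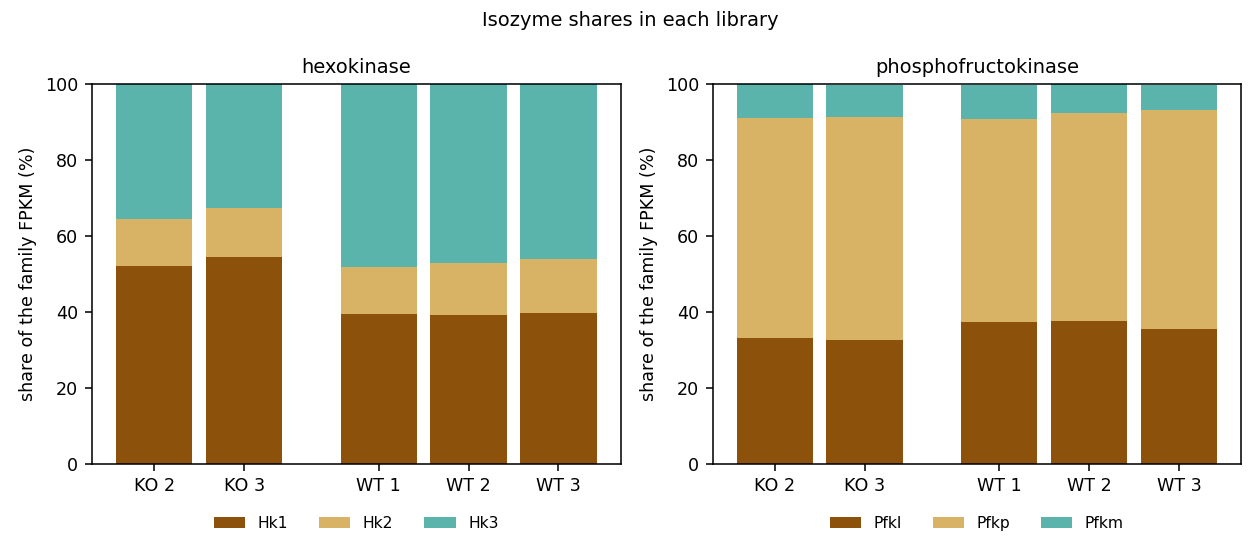
Share of the summed FPKM held by each isozyme of hexokinase (left panel) and phosphofructokinase (right panel), in percent, in KO replicates 2 and 3 and WT replicates 1 to 3. Hk1 holds 52.2% and 54.4% of hexokinase in the KO libraries and 39.1% to 39.7% in the WT libraries, while the phosphofructokinase shares differ less.

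Glucose 6-phosphate isomerase, Gpi1 (gene 14751, chromosome 7, 34201327 to 34230336, minus strand), makes fructose 6-phosphate and is also secreted as a cytokine. It had 314.31 and 318.85 FPKM in KO and 376.92, 344.54 and 356.27 FPKM in WT. Both KO libraries lay below all WT libraries, and the log2 change of -0.18 ± 0.08 did not pass (adjusted p = 0.142).

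Of the phosphofructokinase isozymes, which catalyse the committed step, the liver-type subunit was lower and the platelet-type subunit was not called. Pfkl (gene 18641, chromosome 10, 77986947 to 78009807, minus strand) had 25.13 and 24.45 FPKM in KO and 31.34, 31.76 and 30.87 FPKM in WT. The libraries of each genotype agreed within 1 FPKM, and the groups did not overlap. Pfkl fell by 0.33 ± 0.07 on the log2 scale (limma adjusted p = 0.0153). Pfkp (gene 56421, chromosome 13, 6579874 to 6649060, minus strand) had 44.12 and 44.01 FPKM in KO and 45.1, 46.45 and 50.48 FPKM in WT. WT replicate 1 lay close to both KO libraries, and the log2 change of -0.10 ± 0.08 did not pass (adjusted p = 0.402). The muscle-type subunit Pfkm had 6.61 ± 0.156 FPKM in KO (SD, n = 2) and 6.59 ± 0.946 FPKM in WT (SD, n = 3), without a call (adjusted p = 0.961). Pfkp was the main subunit in every library, with 58.4% ± 0.45 of the family FPKM in KO and 55.5% ± 2.2 in WT. Pfkl held 32.8% ± 0.33 in KO and 36.8% ± 1.2 in WT. The shares of Pfkp and Pfkl did not overlap between genotypes, and each gave the smallest possible exact permutation p = 0.2.

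Aldolase A, Aldoa (gene 11674, chromosome 7, 126795234 to 126800994, minus strand), cleaves fructose 1,6-bisphosphate. It stood at 685.65 and 674.86 FPKM in KO, against 867.66, 864.34 and 858.41 FPKM in WT. The libraries of each group were close together and the groups lay far apart. The mean was 680 ± 7.63 FPKM in KO (SD, n = 2) and 864 ± 4.69 FPKM in WT (SD, n = 3). Aldoa fell by 0.34 ± 0.08 on the log2 scale (limma adjusted p = 0.0195). Aldoc, the brain-type isozyme, had 17.52 and 16.64 FPKM in KO and 23.76, 19.16 and 21.89 FPKM in WT (log2 change -0.32, adjusted p = 0.067). Aldoa held 97.6% of the aldolase FPKM in both genotypes.

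Phosphoglycerate kinase 1, Pgk1 (gene 18655, chromosome X, 106187100 to 106203699, plus strand), carries out the first ATP-yielding step. Its level was 397.65 and 340.44 FPKM in KO, against 483.36, 494.66 and 479.73 FPKM in WT. The groups did not overlap, and KO replicate 3 was the lowest. Pgk1 fell by 0.40 ± 0.09 on the log2 scale (adjusted p = 0.0194), and by 0.29 without KO replicate 3. It lies on the X chromosome, and WT replicate 1, of male cells, lay between WT replicates 2 and 3, of female cells. The Pgk1 window with its 2 cores is printed above.

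Phosphoglycerate mutase 1, Pgam1 (gene 18648, chromosome 19, 41911871 to 41918665, plus strand), moves the phosphate to the second carbon. It had 337.13 and 321.96 FPKM in KO and 408.04, 429.59 and 434.2 FPKM in WT, with no overlap between the groups. The log2 change was -0.36 ± 0.08 (limma adjusted p = 0.0148). Enolase 1, Eno1 (gene 13806, chromosome 4, 150236708 to 150248879, plus strand), forms phosphoenolpyruvate. It had 674.76 and 665.89 FPKM in KO and 852.75, 827.95 and 837.37 FPKM in WT, and the groups again lay apart. Eno1 fell by 0.32 ± 0.08 on the log2 scale (adjusted p = 0.0245). The isozymes Eno2, of neurons, and Eno3, of muscle, were low in all libraries (0.20 to 0.86 and 1.86 to 3.13 FPKM), and Eno1 held 99.5% of enolase FPKM in KO and 99.7% in WT.

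Lactate dehydrogenase A, Ldha (gene 16828, chromosome 7, 46842274 to 46855627, plus strand), which favours the reduction of pyruvate to lactate, split the KO libraries. It had 863.32 and 695.09 FPKM in KO replicates 2 and 3, against 843.16, 863.87 and 866.94 FPKM in WT. KO replicate 2 lay within the WT range and KO replicate 3 below it, and the log2 change of -0.15 ± 0.11 did not pass (adjusted p = 0.385). Without KO replicate 2 the change was -0.30 and passed (adjusted p = 0.0229), and without KO replicate 3 it was 0.01 (adjusted p = 0.941). Ldhb, the subunit that favours the oxidation of lactate, had 3.23 and 2.35 FPKM in KO and 7.89, 12.45 and 9.92 FPKM in WT. Ldhb fell by 1.54 ± 0.19 on the log2 scale (limma adjusted p = 0.00159), the largest change among the tested enzymes of the pathway, with no overlap. Ldha accordingly held 99.6% ± 0.025 of lactate dehydrogenase FPKM in KO and 98.8% ± 0.25 in WT, without overlap (exact permutation p = 0.2, the smallest possible).

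The calls of the 6 glycolysis genes that passed were near the threshold, with adjusted p values between 0.0148 and 0.0322. None of the 6 passed without WT replicate 2 (0.0695 to 0.0976), without WT replicate 3 (0.0553 to 0.116) or with sex as a covariate, which sets KO against WT replicate 1 (0.112 to 0.175). Without WT replicate 1, Pfkl (0.0484) and Pgam1 (0.0335) passed, and without KO replicate 3 all but Hk1 did (0.0709). Hk1 also missed the threshold without the mean-variance trend (0.0574), and Eno1 under median-of-ratios and upper-quartile scaling (0.0523 and 0.0577). The direction of all 6 genes was the same under the 17 alternatives, with a log2 change between 0.22 and 0.48 for Hk1 and between -0.51 and -0.24 over the 5 genes that fell. For the authors' own tests, the share of all genes under 0.05 was not computed, so their counts have no background here. In the authors' deposited table, the unadjusted t test gave a p under 0.05 for 7 of the 10 genes. The second test in the authors' deposited table gave adjusted p values between 0.826 and 1 and called 0 of them, and the sources used here do not give its input.

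Of the further glycolytic enzyme genes, 12 were tested, and of those 5 fell and none rose, with a median log2 change of -0.28. The shares over all tested genes were 13.0% lower and 9.08% higher. Gapdh, which makes 1,3-bisphosphoglycerate and had the highest level of the pathway, stood at 1881 and 1743 FPKM in KO, against 2245, 2233 and 2206 FPKM in WT. Its KO libraries lay below all WT libraries, but the log2 change of -0.30 ± 0.09 did not pass (limma adjusted p = 0.0637). Without KO replicate 2, Gapdh passed (0.0183).

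Triose phosphate isomerase, Tpi1, had 245 ± 10.6 FPKM in KO (SD, n = 2) and 293 ± 10.2 FPKM in WT (SD, n = 3), and fell by 0.26 ± 0.08 on the log2 scale (adjusted p = 0.0468). Pyruvate kinase, Pkm, had 658 ± 11.8 FPKM in KO and 811 ± 16.3 FPKM in WT, and fell by 0.30 ± 0.08 (adjusted p = 0.033). Pkm lost its call without WT replicate 1, 2 or 3 (0.114, 0.124 and 0.126), and Tpi1 without these (0.147, 0.142 and 0.124) or KO replicate 3 (0.0865). Over all 17 alternatives, Pkm lost its call in 8 and Tpi1 in 12. For Pkm and Tpi1 these included median-of-ratios scaling (0.0693 and 0.107), upper-quartile scaling (0.0853 and 0.128) and no filter on low values (0.0561 and 0.0537). Tpi1 also lost it under quantile normalization (0.0547) and both variance settings (0.0748 and 0.0569). Total scaling kept both calls (0.0378 and 0.046). Adpgk, which phosphorylates glucose with ADP, had 36.6 ± 2.05 FPKM in KO and 51.8 ± 4.48 FPKM in WT (log2 change -0.49 ± 0.09, adjusted p = 0.00967). Bpgm, which makes 2,3-bisphosphoglycerate, had 7.04 and 6.97 FPKM in KO and 5.72, 5.52 and 6.64 FPKM in WT and did not pass (0.211). Pgam2 (0.615), Eno3 (0.848) and Ldhc (0.69), isozymes of muscle and testis, did not pass either. Hkdc1, Eno2, Eno1b and Pklr were below the filter, at under 1 FPKM in every library. Several genes of the pathway, such as Gapdh, Ldha, Pgam1 and Eno1, have processed pseudogenes or retrocopies in the mouse genome, and the sources used here do not say how shared reads were divided, so levels of these genes carry that uncertainty.

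**Figure D3:**
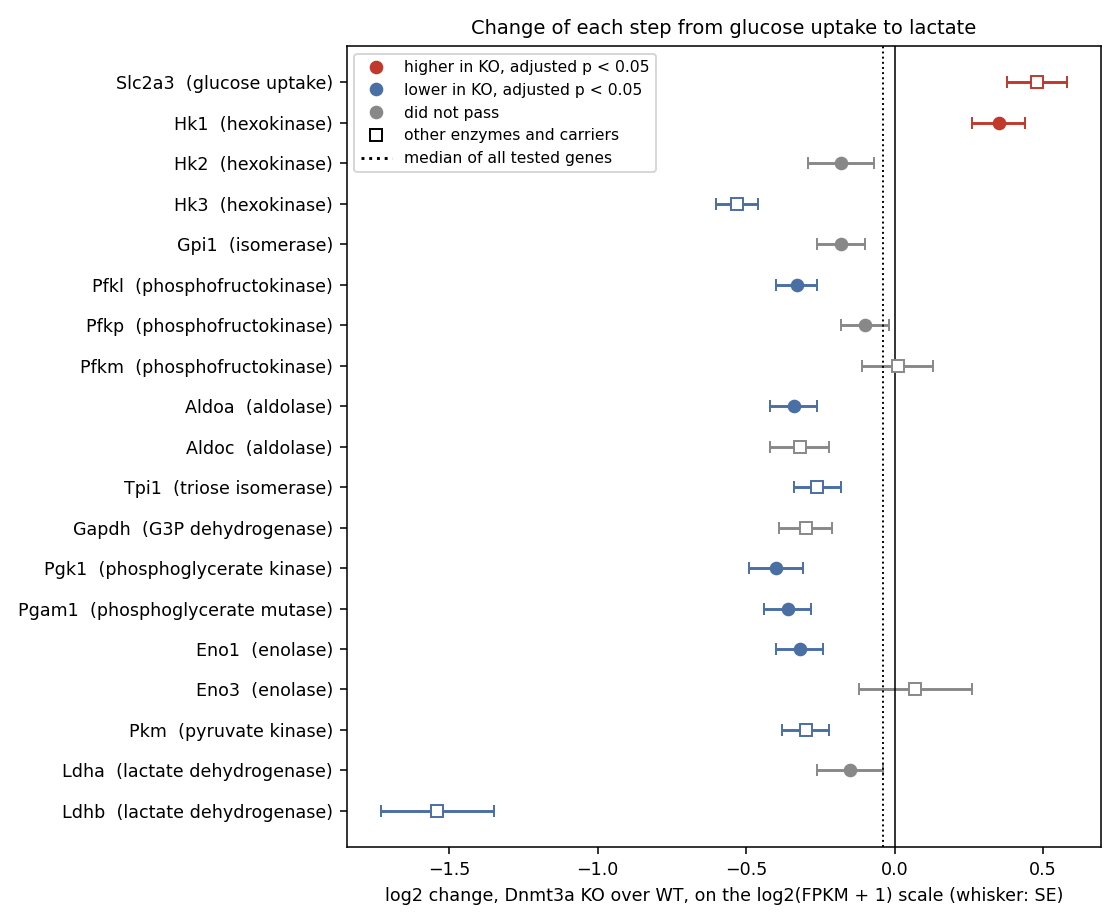
Log2 change of KO over WT on the log2(FPKM + 1) scale, with SE. Rows run from the glucose carrier Slc2a3 over the enzymes from hexokinase to lactate dehydrogenase, top to bottom. Filled circles are the 10 glycolysis enzymes, open squares other genes, and the dotted line is the median of all tested genes (-0.04). Of 8 tested carriers, only Slc2a3, the 1 that was called, is drawn, and Slc2a1 (-0.15, not called) is among those left out. Slc2a3 and Hk1 lie to the right of 0, most enzymes from aldolase to pyruvate kinase lie between -0.26 and -0.40, and Ldhb lies at -1.54.

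Of 8 tested carriers of glucose and lactate, 1 rose and none fell, while 9.08% of all tested genes were called higher and 13.0% lower. Slc2a3, the high-affinity glucose transporter GLUT3, had 82.79 and 103.14 FPKM in KO and 66.67, 66.94 and 64.92 FPKM in WT. Like Hk1, it was highest in KO replicate 3 and above all WT libraries in both. It rose by 0.48 ± 0.10 on the log2 scale (limma adjusted p = 0.015) and missed the threshold without WT replicate 3 (0.0525) and with sex as a covariate (0.0983). Slc2a1, encoding GLUT1, had 32.76 and 39.15 FPKM in KO and 38.42, 39.78 and 41.24 FPKM in WT and did not pass (adjusted p = 0.305). The lactate exporter Slc16a3 did not pass (log2 change -0.01, adjusted p = 0.959), and neither did Slc16a1 (-0.37, 0.0769).

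Among regulators of the pathway, 1 of 11 tested genes rose and 3 fell, against 9.08% higher and 13.0% lower over all tested genes. Pfkfb4, which makes fructose 2,6-bisphosphate, the activator of phosphofructokinase, had 10.0 ± 0.891 FPKM in KO (SD, n = 2) and 14.8 ± 1.49 FPKM in WT (SD, n = 3), and fell by 0.51 ± 0.11 on the log2 scale (limma adjusted p = 0.0155). Its relative Pfkfb3 had 12.57 and 15.54 FPKM in KO and 13.89, 14.47 and 13.7 FPKM in WT and was not called (0.986). Tigar, a phosphatase that removes fructose 2,6-bisphosphate, fell by 0.52 ± 0.13 (0.0246). Of the kinases that hold back pyruvate dehydrogenase, Pdk1 fell by 0.54 ± 0.14 (0.0305) and Pdk2 rose by 0.49 ± 0.13 (0.0358). All 4 were low, at 2.11 to 15.8 FPKM. Their calls depended on single libraries: Pfkfb4 did not pass without KO replicate 2 or WT replicate 2 (0.0606 and 0.0567), nor Tigar without KO replicate 3 or WT replicate 1 or 2 (0.109, 0.0683 and 0.0644). Pdk1 did not pass without KO replicate 2 or 3 or WT replicate 1 or 2 (0.084, 0.107, 0.0813 and 0.0938), nor Pdk2 without KO replicate 2 or 3 or WT replicate 2 or 3 (0.081, 0.141, 0.0942 and 0.0785).

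In the routes that leave or follow glycolysis, more genes fell than rose. The same held over all tested genes, with 13.0% called lower and 9.08% higher. Of 8 tested genes of the pentose phosphate pathway, which draws on glucose 6-phosphate, 3 fell and none rose, with a median log2 change of -0.23. Pgd, its second NADPH-yielding enzyme, had 158.09 and 157.62 FPKM in KO and 247.15, 236.46 and 230.89 FPKM in WT. It fell by 0.59 ± 0.07 on the log2 scale (limma adjusted p = 0.00153), and G6pdx, the first enzyme, by 0.48 ± 0.08 (0.00472). Of 25 tested genes of pyruvate entry and the citric acid cycle, 12 fell and 1 rose, with a median of -0.26. Dld, shared by the pyruvate and oxoglutarate dehydrogenases, fell by 0.41 (0.00692) and Idh3a, of isocitrate dehydrogenase, by 0.37 (0.00894). Pcx, pyruvate carboxylase, which makes oxaloacetate from pyruvate, was the gene that rose. It had 12.09 and 15.69 FPKM in KO and 5.55, 4.79 and 5.33 FPKM in WT, a log2 change of 1.25 ± 0.13 (0.000809). Of 12 tested genes of the glycogen, serine and glycerol branches, 6 fell and none rose, among them Phgdh, the first enzyme of serine synthesis (-0.43, 0.00665). Pgd, G6pdx, Pcx and Phgdh passed under all 17 alternatives, and Dld and Idh3a under all but sex as a covariate (0.0779 and 0.0906).

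Among HIF1, its regulators and targets outside glycolysis, 7 of 21 tested genes rose and 3 fell, with a median log2 change of 0.13. Over all tested genes, 9.08% were called higher and 13.0% lower, which also holds beside the lists that follow. Whether HIF1 acts on the glycolysis enzymes was not tested. Hif1a, named here after its values were seen, had 47.0 and 52.5 FPKM in KO and 39.57, 40.6 and 39.49 FPKM in WT (log2 change 0.31 ± 0.08, limma adjusted p = 0.0267). The collagen-modifying enzyme genes Plod2 (1.09 ± 0.10, 0.000679) and P4ha2 (1.01 ± 0.13, 0.00225) had the largest rises, and Vegfa rose by 0.53 ± 0.12 (0.0206). The HIF hydroxylase gene Egln3 fell by 0.69 ± 0.08 (0.00159) and the mitophagy receptor gene Bnip3l by 0.41 ± 0.08 (0.00911). Hif1a lost its call without KO replicate 3 (0.0717) or WT replicate 1, 2 or 3 (0.0764, 0.082 and 0.0953), and Vegfa without KO replicate 3 (0.0849) or WT replicate 2 or 3 (0.0653 and 0.0663). Car9, P4ha1 and Ero1l rose as well. Car9 and Ero1l lost their calls without WT replicate 1, 2 or 3 (limma adjusted p 0.0538 to 0.0859 and 0.0582 to 0.0731). P4ha1 lost its call without WT replicate 2 or 3 (0.0979 and 0.102), and Mxi1, which fell, without WT replicate 1, 2 or 3 (0.0696 to 0.119). Plod2, P4ha2, Egln3 and Bnip3l kept their calls without any single WT replicate. Of 10 tested genes of MYC and related factors, 1 fell, Mxd1, and Myc itself had 41.23 and 48.69 FPKM in KO and 39.43, 29.64 and 37.46 FPKM in WT without passing (0.123). Mxd1, a MYC antagonist, had a log2 change of -0.30 (adjusted p = 0.0408), and no leave-out of a single library kept its call (0.0585 to 0.115). Of 16 tested cycling genes, 5 fell and none rose, with a median of -0.23.

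**Figure D4:**
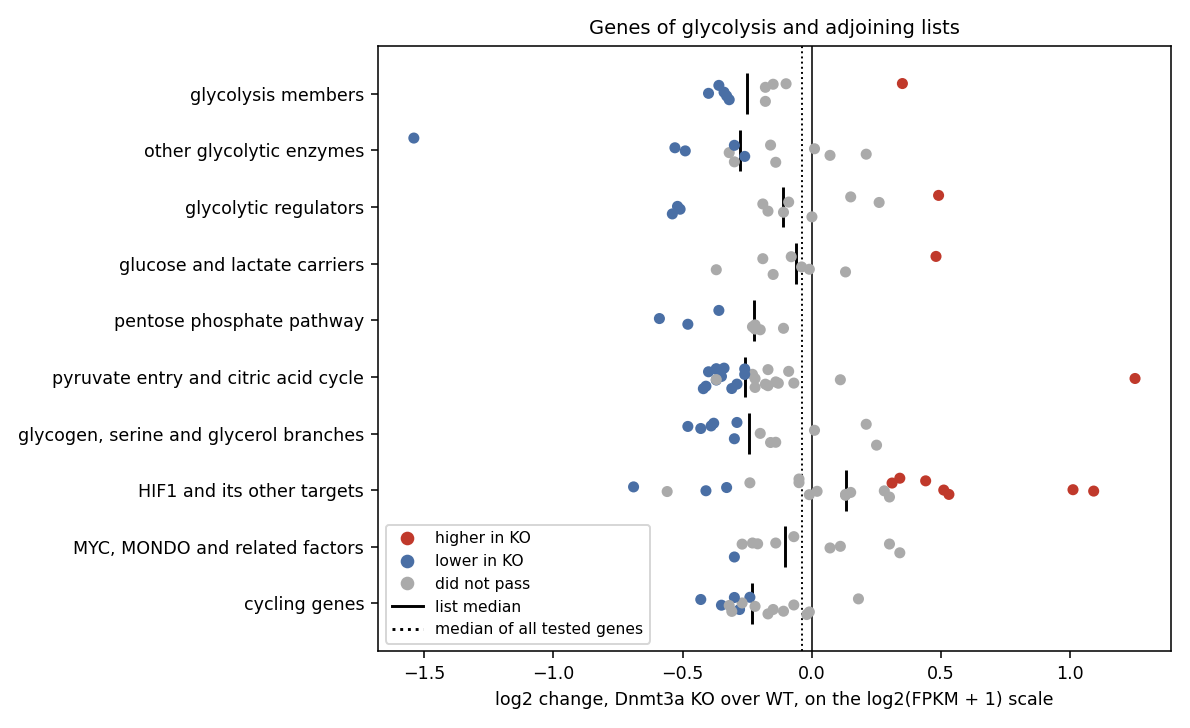
Log2 change of KO over WT on the log2(FPKM + 1) scale for the tested genes of the glycolysis enzymes and 9 adjoining lists; each point is a gene, coloured by its call, the black bar is the list median and the dotted line the median of all tested genes. The medians of the glycolysis enzymes, the other glycolytic enzymes, the pentose phosphate, citric acid cycle and glycogen lists and the cycling genes lie between -0.28 and -0.23, and that of the HIF1 list lies at 0.13.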

How the data were processed

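RNA of bone marrow cells, cultured for 1 week with both cytokines and 10% fetal bovine serum (FBS), was sequenced from 2 groups. Of these, 2 KO and 3 WT libraries were analysed. Per the file headers, the authors deposited FPKM for each gene and library, given to 2 decimals. They also deposited a signed fold (a score here), 3 p-value columns, and a log fold change and log mean level (scores, not used here). HISAT, StringTie 1.2.1, edgeR and mm10 appear, without roles, per the submitters' processing notes. Aligner settings, annotation and counting rules are not stated there. FPKM carry no read totals, and depth was not recovered from them. Polyadenylated RNA was selected, per the labels' protocols.

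Genes with at least 1 FPKM in 2 libraries were fitted with limma 3.58.1 (R 4.3.3) on log2(FPKM + 1), using genotype as the only term and a trended prior variance (3 residual degrees of freedom), adjusted by Benjamini-Hochberg over 11365 genes. Isozyme shares were tested by exact two-sided permutation with scipy 1.17.1. The shares of Hk1, Hk3, Pfkl and Pfkm were added after the values were seen. The fit was also run on simulated data with independent normal noise and SDs shuffled between genes. That setting lacks the mean-variance trend of these data, and no statement here rests on it. Gene symbols that appeared as dates were replaced through their gene numbers. Positions come from RefSeq and gene overlaps from GENCODE on GRCm38.

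The members and lists were chosen with earlier results of these data known. The genes named were all members, all other glycolytic enzymes, up to 6 genes passing in each direction per pathway list, of which those described are a part, and Dnmt3a. Alternatives were 2 pseudocounts, 2 filters, 4 scalings, 2 variance settings, a replicate block, sex as a covariate and leaving out each library.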

Additional observations from a re-analysis of the deposited data

How the results depend on the processing

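Of the 10 glycolysis enzymes, 1 was called higher and 5 lower. No member was called higher without the mean-variance trend, with the replicate block or with sex as a covariate (0 each), and none lower with the replicate block or sex as a covariate (0 each). Leaving out each library in turn gave 0 to 1 members called higher and 0 to 6 called lower. Pseudocounts, filters, scalings and robust variances kept the count at 4 or 5 lower and 1 higher. The medians of all genes moved from -0.04 to between -0.02 and 0.03 under other scalings, and the share of calls that were higher from 41.2% to 53.8% under upper-quartile scaling, 49.8% under median-of-ratios scaling and 50.4% under quantile normalization. Genes called over the whole table numbered 2507, against 1312 with sex as a covariate and 1623 without WT replicate 2. Fewer samples or residual degrees of freedom belong to the construction of the leave-outs, the block and the sex term.

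The titles give both groups replicate numbers 2 and 3. The differences between replicates 2 and 3 correlated at 0.0421 across genes between genotypes, and nothing in the labels ties equal numbers together. The replicate block left 1 residual degree of freedom and 2058 genes called, and the 6 called members had adjusted p values of 0.0608 to 0.163. With the block, the Hk1 share of hexokinase differed by 13.9 points and the Hk3 share by -12.3 points. Leaving out each library gave 12.7 to 14.9 points for Hk1. Of 59 other named genes that passed, 26 passed under every alternative that tested them. No gene that passed changed sign under any of the 17 alternatives, while 5 genes that did not pass did. With sex as a covariate, Pfkm had a log2 change of -0.18 (0.01 without the covariate), Pgam2 0.09 (-0.16) and Ldhc 0.22 (-0.14), and with the replicate block Eno3 had -0.04 (0.07 without it). Leaving out single libraries gave ranges that crossed 0 for Ldha (-0.30 to 0.01), Pfkm (-0.07 to 0.11), Pgam2 (-0.29 to 0.02), Eno3 (-0.19 to 0.33) and Ldhc (-0.32 to 0.04). The sign changed without KO replicate 3 for Ldha and Eno3, without WT replicate 1 for Eno3, without KO replicate 2 or WT replicate 2 or 3 for Pfkm, without WT replicate 2 for Pgam2 and without WT replicate 3 for Ldhc, which was at 0.0 without KO replicate 2. The cause was not tested. With an unknown depth, counting error could not be separated from the spread between libraries.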
